A study of Mus musculus with 8 samples.

Results

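The regions described here were the wide accessible promoters of mouse medullary thymic epithelial cells (mTECs) that could be assigned to a single protein-coding gene. They were chosen from the consensus set of 57124 accessible regions by position and width alone. A region was taken if it lay on an autosome, was at least 800 bases wide, and had its centre between 1000 bases upstream and 100 bases downstream of a transcription start of exactly 1 protein-coding gene in the GENCODE M21 basic annotation. The rule gave 1649 regions, which were 2.89% of the set and 48.8% of its 3379 wide regions. They belonged to 1641 genes, and 8 genes had a pair of them.

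The assay was ATAC-seq. It uses the transposase Tn5, which cuts accessible DNA and adds the adapters for sequencing in the same step. The mTECs were CD45neg Epcampos CDR1neg cells sorted from thymi of wild-type BL6N6 mice, which per the study's methods were 4 to 6 weeks old, and the labels name no treatment. The 8 samples were MHCIIlo and MHCIIhi cells, each split into Tspan8neg and Tspan8pos, which made 4 groups with 2 biological replicates each. Tspan8 is a tissue-restricted antigen expressed in a small share of mTECs, and MHC class II separates mature from immature and late stages. The consensus regions belong to all samples together, so nothing below is a statement on any of the 4 groups, and signal per sample is not analysed here.

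In mammals most promoters lie in CpG islands, stretches that are rich in G and C and have kept the CpG dinucleotides that methylation has removed from the rest of the genome. Such promoters usually start transcription at many positions and are read in many tissues, whereas promoters with few CpG often carry a TATA box and serve tissue-specific genes. mTECs are known for transcribing a large range of tissue-restricted genes that are otherwise silent outside their own tissue, and Aire and Fezf2 are regulators of this process.

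Promoters with many and with few CpG both occurred among the wide regions, and 8 sequences are shown as examples. Each is the 150 bases directly upstream of the transcription start (GRCm38, the assembly behind mm10), written 5′ to 3′ in the direction of transcription, and none overlaps an annotated transcript. Capitals mark CpG dinucleotides. The first 4 come from the widest regions. They are Ppp2r3d, which encodes a regulatory subunit of protein phosphatase 2A (chr9:124424155-124424304, minus strand, 11 CpG), Skil, an inhibitor of SMAD signalling (chr3:31094908-31095057, plus strand, 27 CpG), Kmt2e, a chromatin regulator (chr5:23434291-23434440, plus strand, 26 CpG), and Hsp90ab1, a chaperone (chr17:45573272-45573421, minus strand, 16 CpG).
Ppp2r3d: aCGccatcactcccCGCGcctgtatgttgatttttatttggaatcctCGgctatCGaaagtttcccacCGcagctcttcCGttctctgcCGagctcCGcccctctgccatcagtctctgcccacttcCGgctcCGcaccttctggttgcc
Skil: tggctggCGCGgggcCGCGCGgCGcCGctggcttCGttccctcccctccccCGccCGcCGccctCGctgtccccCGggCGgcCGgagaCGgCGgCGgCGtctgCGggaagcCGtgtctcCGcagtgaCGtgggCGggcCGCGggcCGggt
Kmt2e: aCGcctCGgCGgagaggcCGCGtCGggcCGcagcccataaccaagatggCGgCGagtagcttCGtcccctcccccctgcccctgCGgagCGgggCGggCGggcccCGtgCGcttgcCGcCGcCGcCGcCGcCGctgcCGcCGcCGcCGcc
Hsp90ab1: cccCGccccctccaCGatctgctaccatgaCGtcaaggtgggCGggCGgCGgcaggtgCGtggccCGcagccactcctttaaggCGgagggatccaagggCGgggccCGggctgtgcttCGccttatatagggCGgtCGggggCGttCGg
The other 4 come from the members with the fewest CpG for their base composition. They are Sprr1a, a precursor of the cornified envelope of squamous epithelium (chr3:92485896-92486045, minus strand, 0 CpG), 4931408C20Rik (chr1:26687461-26687610, minus strand, 0 CpG), Ankrd22 (chr19:34166054-34166203, minus strand, 2 CpG) and the receptor tyrosine kinase Axl (chr7:25788706-25788855, minus strand, 4 CpG).
Sprr1a: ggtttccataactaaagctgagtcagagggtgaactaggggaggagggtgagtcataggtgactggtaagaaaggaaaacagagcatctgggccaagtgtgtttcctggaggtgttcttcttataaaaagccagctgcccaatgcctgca
4931408C20Rik: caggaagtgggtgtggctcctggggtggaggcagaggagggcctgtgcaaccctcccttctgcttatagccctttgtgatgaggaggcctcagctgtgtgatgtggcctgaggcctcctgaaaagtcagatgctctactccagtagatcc
Ankrd22: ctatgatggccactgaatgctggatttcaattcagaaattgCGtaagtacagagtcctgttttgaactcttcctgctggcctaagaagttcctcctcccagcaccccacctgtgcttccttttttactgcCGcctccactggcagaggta
Axl: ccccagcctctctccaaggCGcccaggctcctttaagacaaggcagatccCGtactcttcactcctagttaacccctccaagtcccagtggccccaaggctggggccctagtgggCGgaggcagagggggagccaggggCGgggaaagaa
GC content of the first 4 stretches was 58.0%, 82.7%, 81.3% and 70.7% in the order shown, and that of the other 4 was 48.7%, 58.0%, 49.3% and 64.0%. GC content thus overlapped between the sets, with the same value for Ppp2r3d and 4931408C20Rik. The number of CpG did not overlap, but the other 4 were chosen for a low CpG ratio, which makes this likely. A GC box was present in each of the first 4 stretches and in that of Axl. The Ppp2r3d stretch also held an ETS motif, the Kmt2e stretch a YY1 motif and the Hsp90ab1 stretch a CRE. The 4931408C20Rik stretch held a CACCC motif, and the Ankrd22 stretch none of the 12 motifs described below. The Sprr1a stretch held a TATA box, a CCAAT box and AP-1 motifs.

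The wide promoters were the upper tail of a continuous distribution. Among the 9411 autosomal regions at the promoter of a single protein-coding gene they made up 17.5%, and the plot of widths shows no break at 800 bases. Their median width was 961 bases (quartiles 870 and 1110), 963 were from 800 to under 1000 bases wide, 621 from 1000 to under 1500, and 65 were 1500 bases or more. Just inside the threshold were the regions at Sap18 (800 bases), Cers5 (801) and Crybg3 (801), and just outside those at 9430038I01Rik, Fkbp10 and Pi4k2a (799 bases each). Together the 1649 regions covered 1686 kb, 9.66% of all bases in the consensus set.

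**Figure D1:**
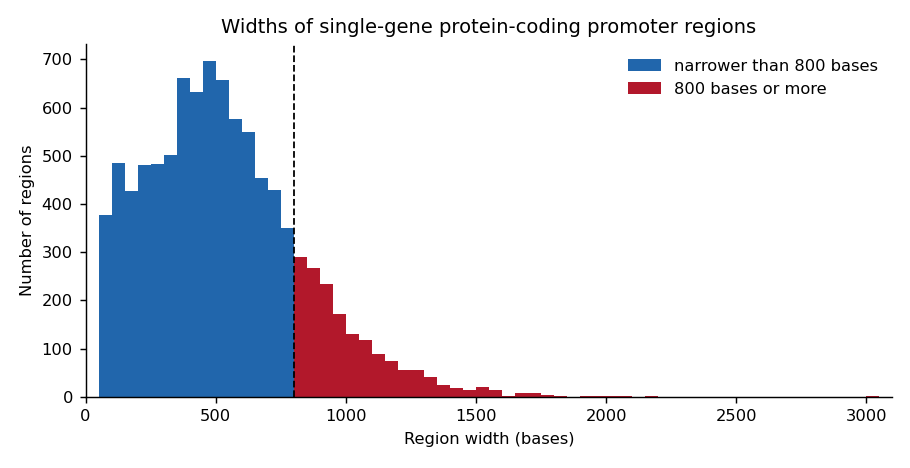
Number of autosomal single-gene protein-coding promoter regions (vertical axis) by region width in bases (horizontal axis, bins of 50 bases). The 1649 regions of 800 bases or more are drawn in red, the 7762 narrower ones in blue, and the dashed line marks 800 bases.

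The 5 regions of 2000 bases or more lay at Ppp2r3d, Lpxn, Skil, Plxnb1 and Cflar. The widest, at Ppp2r3d, spanned 3047 bases on chromosome 9 from 124422907 to 124425953, with 1799 bases upstream of the start. That of Lpxn, which encodes a focal adhesion adaptor, was 2183 bases wide, and that of Skil 2177 bases. Plxnb1 encodes a semaphorin receptor and had a region of 2051 bases. The region at Cflar, whose product inhibits caspase-8, was 2018 bases wide. It held 4 annotated starts spread over 1766 bases, its GC content was only 52.3%, and there was no CpG-rich run at its start.

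The next 5 in width were at Usf2, a transcription factor that binds the E-box (1985 bases), Rev3l, the catalytic subunit of DNA polymerase zeta (1931), Kmt2e (1847), the cap-binding factor Eif4e (1802) and Hsp90ab1 (1786). The windows of Usf2, Rev3l and Kmt2e also held a start of a noncoding gene. Among all members 241 did so (14.6%), compared with 9.12% of the single-gene promoter regions from 200 to under 800 bases and 4.73% of those under 200 bases.

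Nearly all wide promoters lay across the start itself. Of the 1649 regions, 1623 overlapped an exon, 1597 a UTR and 863 (52.3%) coding sequence. The start of their gene nearest to the region centre, among starts that met the rule, was covered by 1602 (97.1%). The rule makes this likely, because a region of this width whose centre is near a start has to cover it. The median region had 574 bases upstream and 419 bases downstream of the start, and 38.7% of all bases lay downstream. In regions from 200 to under 800 bases this share was 43.5%, and in the 65 members of 1500 bases or more it was 34.7%. The window for the centre reaches farther upstream than downstream, so these shares are in part set by the rule. At least 50% of the members covered each position from 550 bases upstream to 400 bases downstream, and the positions covered by most members were 300 to 250 bases upstream, where 99.3% did.

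Many of these genes had several annotated starts within the open region. One start lay in 699 members and 2 or more in 923 (56.0%), with a median of 170 bases between the outermost ones, and 77 members held 5 or more. Members held a mean of 1.98 starts, compared with 1.55 in regions from 200 to under 800 bases, although a wider region has more room for them. The most were found at Hmga1, an architectural chromatin protein, with 14 starts within 198 bases, followed by Abi1, Odf2 and Stau2 with 10 each and Camk2d with 9. At Stau2, which encodes an RNA-binding protein, the 10 starts were spread over 856 bases, and at Abi1, a regulator of actin assembly, over 137 bases. Over whole genes, those with a wide promoter had a mean of 2.59 starts and a median length of 39.5 kb, compared with 2.15 starts and 23.4 kb for the 6968 genes with narrower single-gene promoter regions only, and 1.62 starts and 10.9 kb for the 10480 genes with no promoter region. No promoter region means here that no region had its centre in the window of the rule. A region centred farther downstream can still cover the start of such a gene.

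CpG-rich sequence was defined by a GC content of at least 50% and a ratio of observed to expected CpG of at least 0.6. By this definition 1556 of the 1649 members were CpG-rich, 94.4% (95% Wilson interval 93.1 to 95.4). The share was 79.7% (78.7 to 80.6) in single-gene promoter regions from 200 to under 800 bases, 36.8% (34.2 to 39.5) in those under 200 bases, and 25.3% over all autosomal regions. Wide autosomal regions whose centre met the rule at no annotated start were CpG-rich in 72.0% (69.4 to 74.5). This set is not free of promoters, because some of its regions lie across a start but are centred outside the window. Counted by overlap with a start of exactly 1 protein-coding gene, there were 2400 wide regions, of which 1536 were members. The 296 wide regions at promoters of several protein-coding genes were CpG-rich in 95.3% (92.2 to 97.2). These intervals cover counting error over regions only, and regions are not replicates. Median GC content of the members was 68.2% and the median CpG ratio 0.851, compared with 65.6% and 0.788 from 200 to under 800 bases. The order was the same in a stretch of fixed length, the 300 bases around the start, of which 90.9%, 72.9% and 36.5% were CpG-rich in the same 3 width classes.

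The length of the CpG-rich stretch was measured as the run of 200-base windows, in steps of 50 bases, that met the definition around the start. Its median was 1100 bases (quartiles 750 and 1350) in the wide promoters and 650 bases (350 and 850) in those from 200 to under 800 bases. Conversely, of the 2164 single-gene promoter regions with no run at the start 6.24% were wide. This share was 11.6% (95% Wilson interval 10.6 to 12.6) for runs of 500 to under 1000 bases, 42.5% (40.1 to 44.9) for runs of 1000 to under 1500 bases, and 56.6% (51.6 to 61.4) for runs of 1500 to under 2000 bases, and at 55.7% (46.2 to 64.8) it was no higher for runs of 2000 bases or more. Across the 9411 regions Spearman's rho between width and run length was 0.522, and within the 1649 members it was 0.283. These correlations are across regions of one set, which are not independent, and are given as a description.

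**Figure D2:**
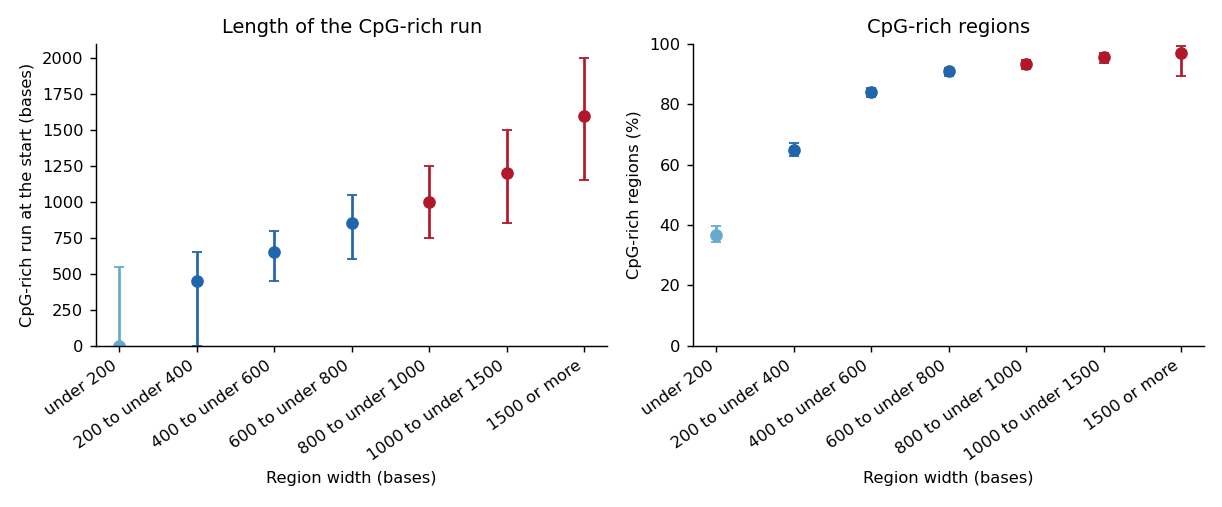
Left, median length in bases of the CpG-rich run at the start (points, bars from the lower to the upper quartile), and right, share of regions that were CpG-rich in percent (points, bars are 95% Wilson intervals), both by width class of single-gene promoter regions, with the classes of 800 bases or more in red. The median run rose from 0 bases in regions under 200 bases to 1600 bases in regions of 1500 bases or more.

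Around the start, CpG density of the wide promoters was highest in the 50 bases directly upstream, at 11.7 CpG per 100 bases. It was 9.63 at the same position in regions from 200 to under 800 bases, 6.27 at its highest in regions under 200 bases, and 3.80 at starts of genes with no promoter region. The density 1500 bases upstream was 1.36 in the members and 1.25 in the regions from 200 to under 800 bases. Downstream of the start G exceeded C on the coding strand in the members. The GC skew, the difference of G and C divided by their sum, was 0.062 over the 500 bases after the start and -0.001 over the 500 before it, and in regions from 200 to under 800 bases the values were 0.057 and 0.002.

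**Figure D3:**
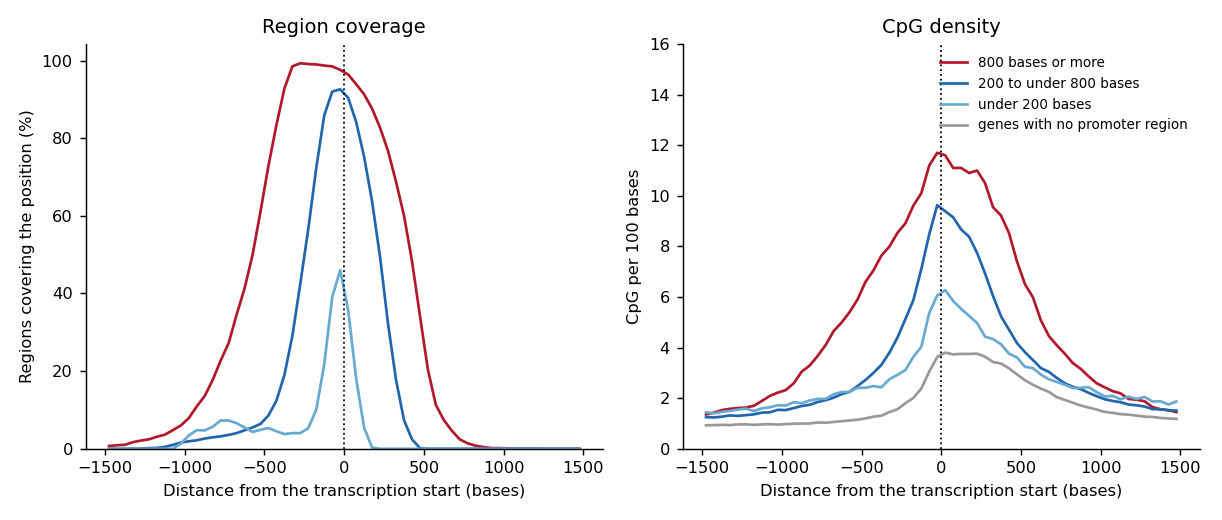
Share of regions that cover a position in percent (left) and CpG per 100 bases (right) by distance from the transcription start in bases, in bins of 50 bases, negative values being upstream. Lines are the width classes of single-gene promoter regions and, on the right only, the starts of genes with no promoter region; the members reach 11.7 CpG per 100 bases just upstream of the start.

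Of the wide promoters, 93 fell outside the CpG-rich definition. Their lowest CpG ratio, 0.0229, was found at Sprr1a, in a region of 804 bases, followed by 4931408C20Rik with 0.0302 in 1411 bases. The region at Lamb3, a chain of the laminin that anchors epithelium to its basement membrane, had a ratio of 0.116 and was 936 bases wide. Ggt6, a member of the gamma-glutamyltransferase family, had a ratio of 0.157, and Klf13 of 0.180. The next 5 were Psapl1 (0.210), Ankrd22 (0.210), Acot7 (0.264), the interferon-induced GTPase Gbp3 (0.278) and Axl (0.279). Acot7 was one of the 47 members that did not cover the start of their gene nearest to the region centre.

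Of the 8 genes with a pair of wide promoters, 7 had them at separate starts. Klf13, a Kruppel-like factor, had a region of 857 bases with a CpG ratio of 0.900 and another of 865 bases, at a start farther downstream, with the ratio of 0.180 given above. Similar contrasts were seen at Pde4d, a cAMP phosphodiesterase (ratios 0.473 and 0.813), and Ppp2r5c, a regulatory subunit of protein phosphatase 2A (0.872 and 0.527). At Gatad2a (0.938 and 0.848), Rnf44 (0.916 and 0.859), Sertad2 (0.853 and 0.683) and Satb1 (0.930 and 0.914) both regions were CpG-rich. The exception was Fbxo11, whose regions of 1002 and 945 bases lay next to each other, and only the first covered a start.

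The surroundings of the wide promoters were described by the other regions near them. The median member had 4 other regions within 50 kb, as had those from 200 to under 800 bases, with means of 4.41 and 4.87. The median distance to the nearest other region was 9970 bases for members, 7430 bases for regions from 200 to under 800 bases and 2632 bases for those under 200 bases, and 90 members had no other region within 50 kb. The most were found at Sfi1 (38), Ercc1 (21), Cblc (20), Stk11 (19) and Borcs6 (18).

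To describe which genes had a wide promoter, 32 gene lists were counted against all 20807 autosomal protein-coding genes, of which 7.89% had a member. Of the 20807 genes 10480 had no promoter region, and these lower the 7.89%. Among the 8609 genes with any single-gene promoter region the share was 19.1%. The lists were defined by name or by a pattern in the gene symbol, and 16 of the 32 lay above the background of 7.89%. A list without a wide promoter can still have open promoters, so the narrower regions are counted beside it.

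Transcription factors and regulators that answer signals included several lists above the background. Of the 25 Kruppel-like and Sp factors, which bind GC boxes and CACCC sequences, 12 had a wide promoter (48.0%, 95% Wilson interval 30.0 to 66.5), 6 a narrower one only and 7 none. The widest were at Sp1 (1588 bases), Sp4 (1530) and Sp2 (1072). A list of inhibitors induced by the pathway they restrain, in which the kinase Pim1 was also counted, followed with 14 of 41 genes (34.1%, 21.6 to 49.5). The widest regions were at Pim1 (1491 bases), the RAS pathway inhibitor Spred1 (1418) and the cytokine signalling inhibitor Socs3 (1313). Genes of the TGF-beta and Notch pathways and ID and HES factors had 8 of 26 (30.8%), led by Skil (2177), Smad7 (1316), which inhibits TGF-beta receptors, and Smad2 (1297), which transmits their signal. Immediate-early genes had 7 of 26 (26.9%), led by Egr1 (1728), the phosphatase Dusp1 (1176) and Jun (1097), and 16 of the other genes of that list had narrower regions. Of its 23 genes with any single-gene promoter region 30.4% had a wide one, against 19.1% over all such genes.

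The NF-kB pathway, which mTECs need for their development, had 5 of 25 genes with a wide promoter (95% Wilson interval 8.86 to 39.1). They were the subunits Rela (912 bases) and Rel (888), the nuclear regulator Nfkbiz (912), the deubiquitinase Cyld (903) and the adaptor Traf3 (827), and a further 13 had narrower regions. Of the 18 genes of the list with any single-gene promoter region 27.8% had a wide one, against 19.1% over all such genes. With a minimum width of 1000 bases no gene of this list or of the IRF and STAT list was left, against a background of 3.30%. Of 16 IRF and STAT factors, which carry interferon and cytokine signals, 3 had a wide promoter (18.8%, interval 6.59 to 43.0). These were Irf1 (962), Stat5b (891) and Stat3 (885), and the interval holds the background of 7.89%. Of 24 ETS factors 3 had one, Elf2 (1523), Etv6 (1137) and Elk4 (1023), and 10 had narrower regions.

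Several groups of genes with general cell functions also lay above the background. Chromatin regulators had 32 of 97 genes (33.0%, 24.4 to 42.8), and 32 of the 64 with any single-gene promoter region. The widest were at the histone methyltransferase family members Kmt2e (1847 bases) and Kmt2c (1754) and the DNA methyltransferase Dnmt3a (1768). Ubiquitin conjugation genes had 35 of 163 (21.5%, 15.9 to 28.4), with Ube2d3 (1560) and Ube2q1 (1424), which are conjugating enzymes, among the widest. SR protein, hnRNP and RBM genes, which encode RNA-binding proteins, many of them splicing factors, had 14 of 67 (20.9%), led by Srsf6 (1600), Hnrnph1 (1521) and Hnrnpa3 (1265). Cyclins, CDKs and their inhibitors had 9 of 45, led by Cdk19 (1469), Cdk12 (1063) and Cdkn2a (1053). Of the 34 with any single-gene promoter region 26.5% had a wide one, against 19.1% over all such genes. Chaperones had 15 of 81 (18.5%), led by Hsp90ab1 (1786), Dnaja1 (1309) and Hspa8 (1104). Translation factors had 9 of 67 (13.4%, interval 7.23 to 23.6), led by Eif4e (1802), Eif5 (1212) and Eif3b (1209). The interval of the translation factors holds the background of 7.89%, so this list was not clearly above it.

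Other groups of genes that every cell uses had shares below or near the background. None of the 47 proteasome genes (upper limit of the 95% Wilson interval 7.56%), 77 mitochondrial ribosomal protein genes (4.75%) or 67 replication-dependent histone genes (5.42%) had one, while 22, 35 and 32 of them had a narrower single-gene region and 7, 23 and 20 only a region shared with another gene. Of 79 cytosolic ribosomal protein genes 4 had one, among them Rps19 (1169 bases), Rpl30 (865) and Rpl37a (815), and 44 a narrower region. This share of 5.06% lay below the background, but with a minimum width of 600 bases it was 26.6%, above the background of 16.3%. The respiratory chain had 5 of 99 (5.05%, and 17.2% with a minimum of 600 bases), at Uqcrh (1184), Cox20 (1085), Ndufb5 (966), Ndufb2 (952) and Atp5l (900). Of 34 tRNA synthetases 3 (8.82%) had one, Yars2 (1191), Kars (1149) and Ears2 (987). Zinc finger protein genes had 45 of 451 (9.98%), led by Zfp668 (1537), Zfp800 (1533) and Zbtb14 (1468), and solute carriers 23 of 358 (6.42%), led by Slc25a25 (1309), Slc24a4 (1291) and Slc24a3 (1235).

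**Figure D4:**
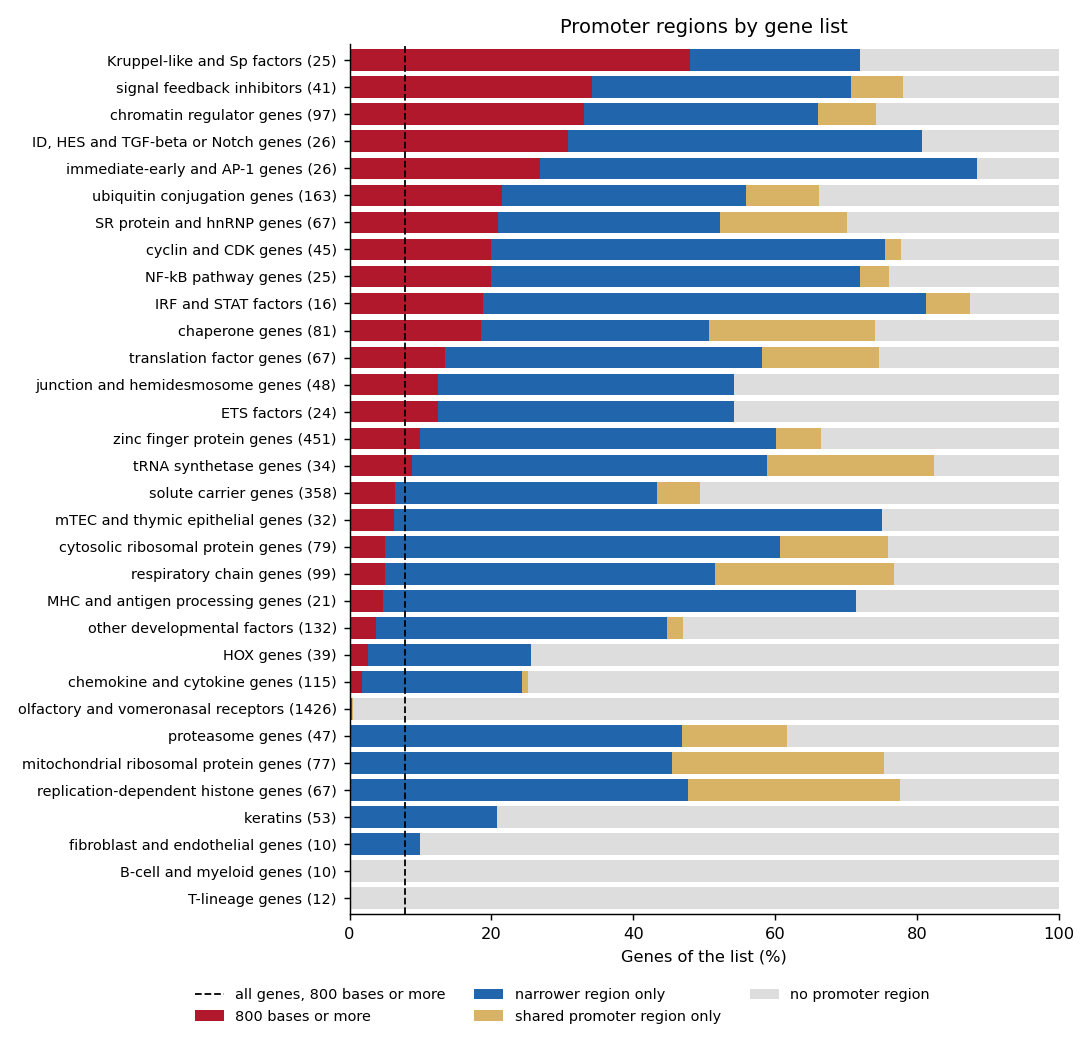
Share of the genes of each list in percent (horizontal axis) that had a promoter region of 800 bases or more (red), only a narrower single-gene region (blue), only a region shared with another protein-coding gene (tan) or no promoter region (grey), with the number of genes in brackets. The dashed line is the share of all autosomal protein-coding genes with a region of 800 bases or more, 7.89%, and Kruppel-like and Sp factors lie farthest to its right at 48.0%. No promoter region means that no region had its centre in the window of the rule.

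Genes of mTECs, of thymic epithelium in general and of other cells were examined next. Of 32 mTEC and thymic epithelial genes 2 had a wide promoter, 22 a narrower one and 8 none. The share of 6.25% (95% Wilson interval 1.73 to 20.1) was near the background of 7.89%, which lay within the interval. The 2 were Prss16, the thymus-specific serine protease (1285 bases), and Dclk1, a kinase used as a marker of tuft cells (989 bases). Neither had a CpG-rich run at its start. Among the narrower ones, named here after their values were seen, were Aire (311 bases), Foxn1 (416), the master regulator of thymic epithelium, and Eya1 (750). None of the markers listed for other cells the sort could hold had a wide promoter. These lists are short and do not cover all genes of such cells. The upper limits of their 95% Wilson intervals were 24.2% for 12 genes and 27.8% for 10 genes, above the background of 7.89%. None of 12 T-lineage genes and none of 10 B-cell and myeloid genes had any single-gene promoter region, and of 10 fibroblast and endothelial genes only Kdr had one, of 473 bases. As the regions belong to all samples together, this does not bear on any single sample.

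Genes of epithelial structure, antigen presentation and cytokine signalling were counted in the same way. None of 53 keratins had a wide promoter (upper limit of the interval 6.76%), and 11 had a narrower one. Of 48 junction and hemidesmosome genes 6 had one (12.5%, interval 5.86 to 24.7, which holds the background of 7.89%). The widest were at the tight junction proteins Tjp1 (1164 bases) and Ocln (1083) and at Lamb3 (936). Of 21 genes of MHC presentation only Ctsl (839), a protease that produces peptides for MHC class II, had one (4.76%, interval 0.846 to 22.7, which holds the background, and 19.0% against 16.3% with a minimum of 600 bases), and 14 had narrower regions. Of 115 chemokine and cytokine genes 2 had one, Il15 (966) and Il7 (859), the growth factor of developing T cells. Developmental factors outside the HOX genes had 5 of 132, Foxp4 (1467), Six2 (1248), Foxd2 (923), Foxn2 (855) and Foxa2 (801). Of 1426 olfactory and vomeronasal receptor genes none had a wide promoter (upper limit 0.269%) and 6 had a narrower region.

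To describe the sequence at the starts, 12 motifs were searched on both strands from 250 bases before to 50 bases after the start, as exact letters in which N is any base. None of the motifs contains another. A match is a description of the letters and not a bound site. The GC box (GGGCGG) was present in 83.1% of members (95% Wilson interval 81.2 to 84.8), compared with 70.0% (68.9 to 71.1) in regions from 200 to under 800 bases, 47.2% in those under 200 bases and 45.9% at all 39600 autosomal protein-coding starts. The CACCC motif (CCACNCCC), another sequence of the Kruppel-like family, was present in 26.4%, against 23.7%, 21.7% and 18.7% in the same order. The YY1 motif (AAGATGGCG) was present in 3.88% (3.05 to 4.93) against 2.61%, 0.698% and 1.95%, and the NRF1 motif (TGCGCANGC) in 9.34% against 8.08%, 3.10% and 5.42%.

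For several other motifs the share was lower in the wide promoters than in those from 200 to under 800 bases. The ETS motif (CCGGAAG) was present in 12.9% of members (11.4 to 14.6) and in 17.3% (16.4 to 18.3) of the narrower class, 6.82% of regions under 200 bases and 11.4% of all starts. The CCAAT box (CCAAT), bound by NF-Y, was present in 32.6% against 38.6%, 29.9% and 36.5%, and the E-box (CACGTG) in 8.67% against 10.8%, 7.60% and 7.57%. The TATA box (TATAAA) was found in 3.27% of members, 5.44% and 9.77% of the narrower classes and 11.8% of all starts. Restricted to 40 to 16 bases upstream of the start, where the TATA box works, the shares were 0.910%, 1.00%, 1.78% and 1.83%. There the interval of the members (0.552 to 1.50) overlapped that of regions from 200 to under 800 bases (0.789 to 1.28). The AP-1 motif (TGANTCA), bound by FOS and JUN factors, was found in 2.91% against 5.27%, 9.30% and 6.51%. The CRE (TGACGTCA) was found in 3.40% against 3.35% in regions from 200 to under 800 bases, the NF-kB motif (GGGANTTTC) in 0.970% against 1.28%, and the octamer (ATGCAAAT) in 1.33% against 1.50%. For the CRE, the NF-kB motif and the octamer the intervals of both classes overlapped.

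**Figure D5:**
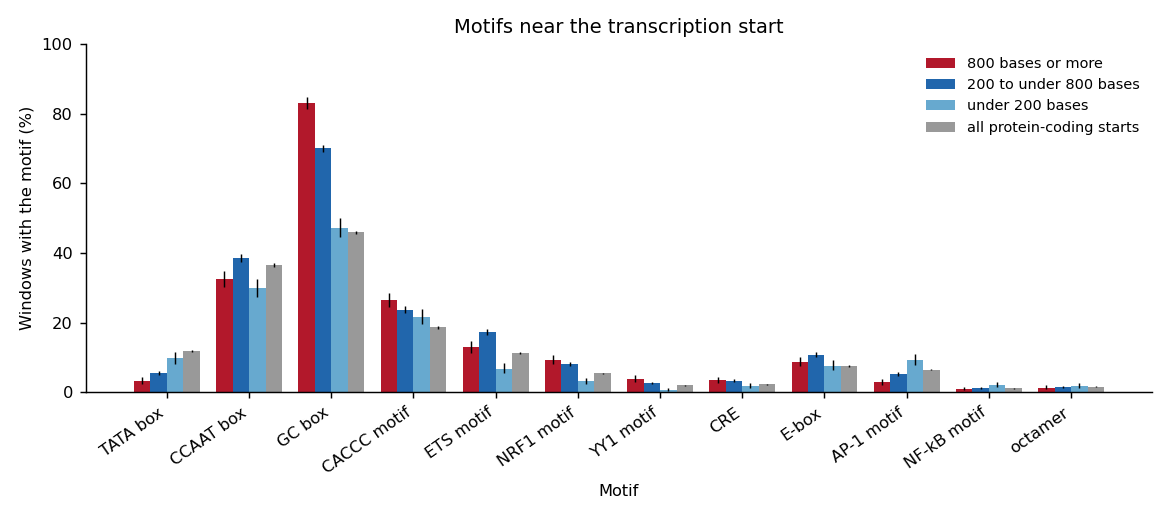
Share of windows with each motif in percent, from 250 bases before to 50 bases after the start, for members (red), single-gene promoter regions from 200 to under 800 bases (blue) and under 200 bases (light blue), and all autosomal protein-coding starts (grey). Bars start at 0, error lines are 95% Wilson intervals, and the GC box is the most frequent motif in all 4 sets.

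The motif shares were also counted by the CpG content of the members. In the 93 members outside the CpG-rich definition the AP-1 motif was present in 8.60% (95% Wilson interval 4.42 to 16.1) and the TATA box in 7.53% (3.69 to 14.7), compared with 2.57% (1.89 to 3.48) and 3.02% (2.28 to 3.99) in the 1556 CpG-rich members. The GC box was present in 61.3% of the former and 84.4% of the latter. The NRF1 motif and the ETS motif, both of which contain CpG, were present in 1.08% and 5.38% of the former, against 9.83% and 13.4%.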

How the data were processed

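ATAC-seq libraries from sorted mTECs of wild-type mice were sequenced in 8 samples, 4 groups with 2 biological replicates each. Per the study's methods, the authors aligned reads to mm10 with Bowtie2, removed mitochondrial, multimapping and low-quality reads with SAMtools and duplicates with Picard. Broad peaks came from MACS2 and consensus regions from bedtools merge. The counting tool named in the file headers is featureCounts 2.0.3. The sources used here do not say if peak calling was done for each sample or after pooling. A merged region can stem from any sample, and its width depends on peak calling, merging and depth. Removal of multimapping reads can narrow or remove regions in repeated sequence.

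The deposited values used were the start, end and width in bases of each consensus region. The 8 deposited columns of counts carry names that match no sample, so they were not used in any step, and depth and signal are not analysed here. No group was compared and no test was run.

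Regions were assigned to starts of GENCODE M21 basic transcripts. GC content, CpG ratio (observed CpG times length, divided by the product of C and G) and motifs were read from GRCm38. CpG-rich runs were followed for up to 5000 bases on either side of the start. Narrower single-gene promoter regions, in classes of 200 to under 800 bases and under 200 bases, served as comparison. Shares carry 95% Wilson intervals, which cover counting error only. Members, gene lists and motifs were chosen with earlier results of these data known. The symbol pattern of the translation factors was corrected after the values were seen, to take in Eef2, Eif1, Eif5 and Eif6. Genes named were the 10 widest members, the 3 widest of each list, all of a count of 5 or fewer, those beside the width threshold, those with a pair of members, and those with the most neighbours, the most starts or the lowest CpG ratio. A few genes that this rule names are not reported here. The functions that assign regions to starts, measure base composition, search motifs and follow CpG-rich runs were tested on simulated data. The other steps were not tested in this way. Alternatives covered width, annotation, promoter window, CpG definition, denominators and motif window. Tools were pysam 0.24.0, matplotlib 3.10.9, scipy 1.17.1, pandas 2.3.3 and numpy 2.4.6 under Python 3.11.15.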

Additional observations from a re-analysis of the deposited data

How the results depend on the processing

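The number of wide promoters was 1649. It moved to 3431 with a minimum width of 600 bases and to 686 with a minimum of 1000 bases. It stayed within 1.5 times under the other definitions, from 1408 regions without a noncoding start in the window to 2401 with the centre within 500 bases of a start, and 1533 of the latter were members. The CpG-rich share of 94.4% was 90.1% with a GC content of at least 55% and a ratio of at least 0.65, 90.9% in the 300 bases around the start, 92.6% with a width of at least 600 bases and 95.8% with at least 1000 bases. The share of members that cover the start nearest to their centre was 96.5% with the comprehensive annotation and 97.2% with protein-coding transcripts only. The share of bases downstream was 39.1% when counted from the start farthest upstream. The median number of other regions was 0 within 10 kb, where it was 1 for regions from 200 to under 800 bases, and 2 when only regions of 200 bases or more were counted. Of all listed genes 6.91% had a wide promoter, 21.2% of those with any single-gene promoter region, 13.4% with a width of at least 600 bases and 3.22% with at least 1000 bases. At 600 bases 29 of 32 lists kept their side of the background, which was then 16.3%, and the exceptions moved above it, cytosolic ribosomal proteins (26.6%), MHC and antigen processing (19.0%) and respiratory chain (17.2%). At 1000 bases 29 of 32 kept it, and NF-kB pathway genes and IRF and STAT factors had no region left, and solute carriers (3.35%) lay just above the background of 3.30%. Against genes with any single-gene promoter region 28 of 30 kept it, and zinc finger protein genes (16.6%) and tRNA synthetases fell below its 19.1%. At least 1 of the 12 motifs was present in 95.5% of members, 85.0% from 100 bases before to 50 after the start and 99.3% from 500 before to 100 after. Members and all starts kept their order for 11 of 12 motifs in these windows, the NF-kB motif being the exception (0.667% against 0.530% in the short window).

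No paired analysis was possible because no test was run and the counts could not be tied to samples. Regions carry no replicate error here, and a threshold on width in a merged set gives no measure of how far a width would vary between animals.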

Other observations

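Between autosomes, the share of genes that had a wide promoter ranged from 5.53% on chromosome 2 to 12.3% on chromosome 18, with 10.2% on chromosome 3 and 6.23% on chromosome 7. Among the members, 695 were wider than the CpG-rich run at their start, which includes the 135 members with no run, and Cflar, with 2018 bases, was the widest of the latter.

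Reads that align to several places had been removed, so the sequence of each member was also counted for 31-base words. The words counted as unique were those that occur once in the assembled chromosomes. In 1601 of the 1649 members at least 90% of the words were unique, and in 5 members under 50% were. These were Gm2237 (16.4%), AW822073 (27.0%), Smarca5 (41.2%), Abhd18 (42.8%) and Rsph3b (49.4%). In the regions of the widest member, Ppp2r3d, and of the member with the most neighbours, Sfi1, 100% were unique. Copies that the assembled chromosomes lack would not be seen by this count.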
